A study of Homo sapiens with 8 samples.

Results

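Metallothioneins are small cytosolic proteins rich in cysteine that bind zinc, copper and cadmium. The 7 genes described here, MT1E, MT1F, MT1G, MT1H, MT1M, MT1X and MT2A, are the metallothioneins of the main inducible group for which the array had a probe set naming that gene and no other. They are 7 of the 19775 genes that the array measured in this way, and each was represented by the one of its probe sets with the highest mean over all arrays. The study exposed human embryonic stem cells of the established line H9, per the labels, to ethanol for 24 h and measured total RNA on 8 Affymetrix expression arrays. The 4 groups of 2 arrays were embryoid bodies with 20 mM ethanol, embryoid bodies with 0 mM, undifferentiated cells with 20 mM and undifferentiated cells with 0 mM. Embryoid bodies are clumps grown in suspension, where stem cells give rise to mixed cell types of the germ layers. All cells were grown by a standard stem cell protocol in mTeSR, a defined medium. The labels call the arrays A and B of a group duplicates and do not say that they came from separate cultures, so a p-value here measures the spread between these arrays only.

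Metallothioneins store and buffer zinc and copper and take up reactive oxygen species through their cysteines. Their transcription is switched on by zinc and cadmium through MTF1, a zinc finger factor that binds metal response elements in their promoters, and also by glucocorticoids and by stress. The human family lies in a cluster on chromosome 16 that arose by gene duplication, so its MT1 members are nearly alike in sequence. MT2A is the most widely transcribed member, MT3 is a form of the nervous system and MT4 a form of stratified squamous epithelium.

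In the RefSeq annotation of GRCh38.p14 the cluster held 16 family genes, 11 of them protein-coding, with 3 genes of other kinds between them. Promoter windows of 3 of the 7 members, MT1H, MT1X and MT2A, were matched in the RefSeq table. They are shown with their letter matches to the metal response element, the motif that MTF1 binds. Each run gives the 250 bases before the gene's start, 5′ to 3′ on the plus strand of GRCh38.p14. Capitals mark every match to the core of the metal response element, TGCACNC or TGCGCNC, on either strand.
MT2A, chr16:56608334-56608583: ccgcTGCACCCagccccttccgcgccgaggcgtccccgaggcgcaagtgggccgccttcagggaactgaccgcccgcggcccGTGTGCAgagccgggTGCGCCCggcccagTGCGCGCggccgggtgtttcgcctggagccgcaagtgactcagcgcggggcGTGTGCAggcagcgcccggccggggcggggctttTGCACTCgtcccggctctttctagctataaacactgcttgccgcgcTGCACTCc
MT1H, chr16:56669564-56669813: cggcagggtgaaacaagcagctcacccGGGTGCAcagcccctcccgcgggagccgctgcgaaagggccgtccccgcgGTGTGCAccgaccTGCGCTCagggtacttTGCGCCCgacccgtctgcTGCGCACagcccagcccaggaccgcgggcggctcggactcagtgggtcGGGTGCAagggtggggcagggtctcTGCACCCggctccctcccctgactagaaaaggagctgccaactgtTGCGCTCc
MT1X, chr16:56682220-56682469: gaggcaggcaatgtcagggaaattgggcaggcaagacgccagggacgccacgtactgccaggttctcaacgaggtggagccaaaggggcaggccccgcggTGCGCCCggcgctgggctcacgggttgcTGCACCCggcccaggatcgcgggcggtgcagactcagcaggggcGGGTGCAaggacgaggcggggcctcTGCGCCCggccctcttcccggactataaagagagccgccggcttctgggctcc
The core was found 7 times before MT2A, 8 times before MT1H and 4 times before MT1X. Of the 35116 promoters of the same length in the table, 24.8% held at least 1 match, and 0.0313%, 0.0171% and 0.37% held at least as many as MT2A, MT1H and MT1X. Matches lay on both strands in all 3 windows, with 5 on the plus strand before MT2A, 5 before MT1H and 3 before MT1X. On the minus strand there were 2 before MT2A, 3 before MT1H and 1 before MT1X. The 3 windows held 73.2%, 70.4% and 70% G and C, against a median of 58% over all promoters. The letters TATAAA occurred once in the windows of MT2A and MT1X and not in that of MT1H, and 10.7% of all promoters held them. Such matches describe letters and do not show that a factor was bound.

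A signal here is the deposited array value turned back from its log scale, in units in which the mean of each array, with 2% trimmed at each end, was 500 to 500.1. Values were deposited to 2 decimals on the log10 scale, so neighbouring values lie 2.33% apart. Median signals of the arrays were 102 on both embryoid body arrays with 20 mM ethanol, 83.2 to 85.1 in embryoid bodies with 0 mM, 74.1 to 79.4 in undifferentiated cells with 20 mM and 69.2 to 70.8 in those with 0 mM. Correlations were 0.981 to 0.988 between replicate arrays, 0.979 to 0.984 between arrays of the same stage and other dose, and 0.872 to 0.894 across stages. The 3′ to 5′ signal ratio, a sign of RNA quality, was 1.51 to 1.58 for ACTB on embryoid body arrays and 1.35 to 1.51 on undifferentiated arrays. That of GAPDH was 0.891 to 0.977 against 0.851 to 0.912. Transcripts that tell cell lines apart went against the labelled line on 4 of the 8 arrays, which made up 1 of the 2 stages. Stage and cell line therefore cannot be told apart in any comparison between stages below. The same holds where the ethanol changes of the stages are compared, whereas each comparison of 20 mM with 0 mM lies within a stage.

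Metallothionein signals were lower in embryoid bodies than in undifferentiated cells. The 6 genes other than MT1M passed the test at 0 mM ethanol and again at 20 mM, all lower. MT1M, a dim gene whose direction the filter on low signals favoured, was called lower at 20 mM and not called at 0 mM. A gene was called where the p-value of limma, adjusted by Benjamini-Hochberg over all 14078 genes tested, was under 0.05. By that rule 24.7% of all genes were called lower at 0 mM and 27% at 20 mM, and 52.7% and 56.3% were called in either direction. The filter kept a gene with at least 2 arrays above their array's median, which MT1M met through the undifferentiated arrays alone. The median log2 change of the members was -1.74 at 0 mM and -1.68 at 20 mM, while that of all genes tested was 0.02 at both doses. In each of the 6 bright genes, and in MT1M, all 4 embryoid body arrays lay below all 4 undifferentiated arrays, a separation that 27.8% of all genes tested also showed. In bulk RNA, fewer cells that transcribe a gene and less of its RNA in each cell cannot be told apart. The RNA quality ratios given above also differed in range between the stages, and their part in the result was not tested.

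**Figure D1:**
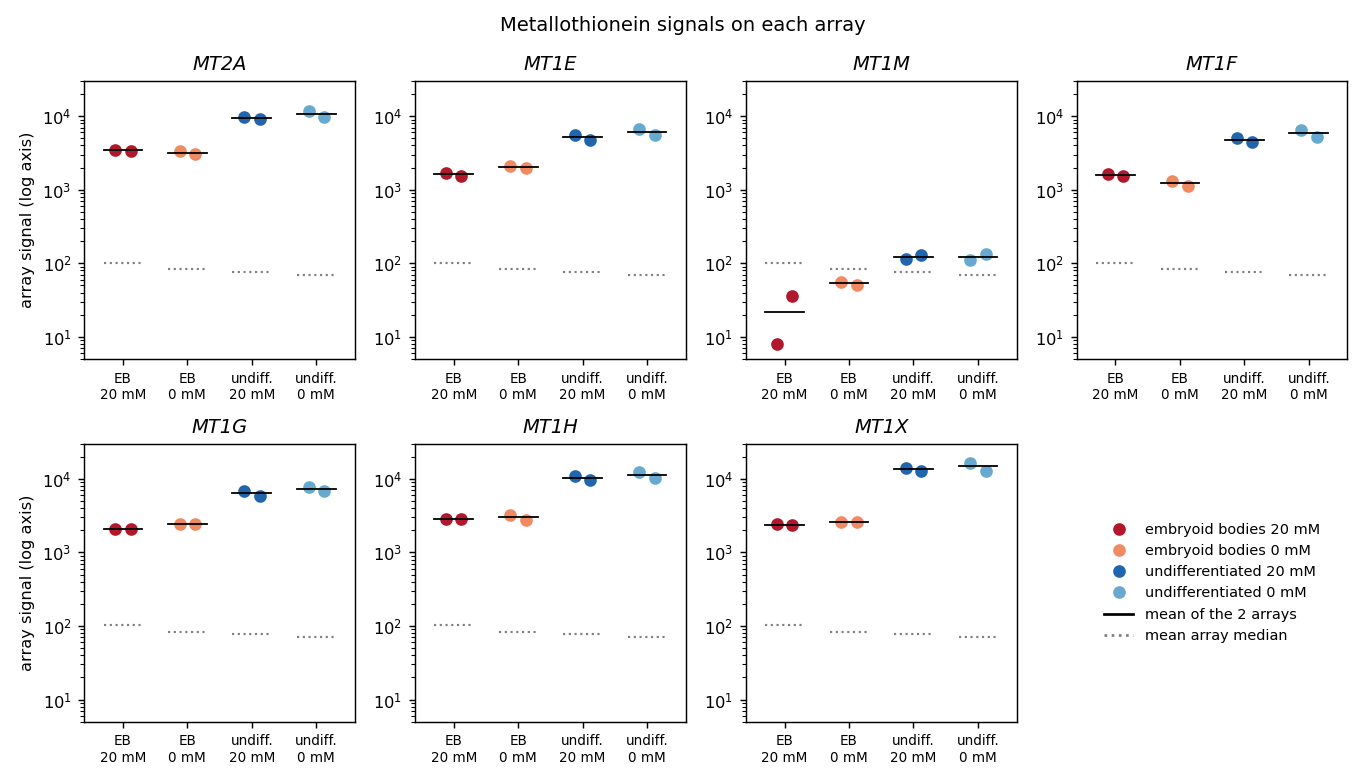
Signals of the 7 metallothionein genes on each of the 8 arrays (log axis, array signal units), by group from embryoid bodies with 20 mM ethanol to undifferentiated cells with 0 mM, with 1 point per array, a line at the mean of the 2 arrays and a dotted line at their mean array median. In each gene the 4 embryoid body points lie below the 4 undifferentiated points, and the 2 doses lie close together within a stage except for MT1M, whose embryoid body points run from 7.94 to 56.2.

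MT2A, the most widely transcribed isoform, had signals of 3467 and 3388 in embryoid bodies with 20 mM ethanol and 3311 and 3090 with 0 mM. In undifferentiated cells its signals were 9772 and 9120 with 20 mM and 11749 and 9772 with 0 mM. The 2 stages were thus far apart, while the 2 doses of undifferentiated cells met at 9772. At 0 mM MT2A was 3.35-fold lower in embryoid bodies (log2 change -1.74 ± 0.11 SE, 2 arrays a group, limma adjusted p = 0.000165). At 20 mM the difference was 2.75-fold (log2 change -1.46 ± 0.11, limma adjusted p = 0.000245).

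By main probe sets, MT1X showed the widest gap of the 6 bright genes at either dose. Its probe set gave 2399 and 2344 in embryoid bodies with 20 mM ethanol, 2630 on both arrays with 0 mM, 14125 and 12882 in undifferentiated cells with 20 mM, and 16595 and 12882 in those with 0 mM. All embryoid body values lay within a narrow band, and the brightest undifferentiated array stood above the other three. MT1X was 5.56-fold lower in embryoid bodies at 0 mM (log2 change -2.47 ± 0.13 SE, limma adjusted p = 0.000103) and 5.69-fold lower at 20 mM (-2.51 ± 0.13, limma adjusted p = 8.77e-05). Its second probe set, described below, gave a log2 change of -1.99 at 0 mM. That is smaller in size than the -2.26 of the main set of MT1F, so the ranking at 0 mM depends on the probe set.

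MT1H had signals of 2818 and 2884 in embryoid bodies with 20 mM ethanol and 3236 and 2754 with 0 mM, against 10965 and 9550 in undifferentiated cells with 20 mM and 12303 and 10233 with 0 mM. Within each stage the ranges of the 2 doses overlapped. The gene was 3.76-fold lower in embryoid bodies at 0 mM (log2 change -1.91 ± 0.13 SE, limma adjusted p = 0.000248) and 3.59-fold lower at 20 mM (-1.84 ± 0.13, limma adjusted p = 0.000236).

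MT1E and MT1G, an isoform often silenced by promoter methylation in tumours, followed each other most closely of all pairs of members. For MT1E the arrays gave 1698 and 1549 in embryoid bodies with 20 mM ethanol, 2089 and 1950 with 0 mM, 5623 and 4786 in undifferentiated cells with 20 mM, and 6607 and 5623 with 0 mM. For MT1G they gave 2089 on both arrays of embryoid bodies with 20 mM, 2399 and 2455 with 0 mM, 6918 and 5889 in undifferentiated cells with 20 mM, and 7762 and 6761 with 0 mM. In both genes the groups stood, low to high, in the order of embryoid bodies with 20 mM, embryoid bodies with 0 mM, undifferentiated cells with 20 mM and undifferentiated cells with 0 mM, and the undifferentiated doses touched or overlapped. MT1E was 3.02-fold lower in embryoid bodies at 0 mM (log2 change -1.59 ± 0.12 SE, limma adjusted p = 0.000335) and 3.20-fold lower at 20 mM (-1.68 ± 0.12, limma adjusted p = 0.000248). MT1G was 2.99-fold lower at 0 mM (log2 change -1.58 ± 0.11 SE, limma adjusted p = 0.000236) and 3.05-fold lower at 20 mM (-1.61 ± 0.11, limma adjusted p = 0.000191).

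MT1F had the widest gap between its stage changes at the 2 doses among the bright genes. Its signals were 1622 and 1514 in embryoid bodies with 20 mM ethanol, 1318 and 1122 with 0 mM, 5012 and 4467 in undifferentiated cells with 20 mM, and 6456 and 5248 with 0 mM. The embryoid body arrays with 20 mM stood above those with 0 mM, while the undifferentiated arrays with 20 mM stood below theirs. The gene was 4.79-fold lower in embryoid bodies at 0 mM (log2 change -2.26 ± 0.14 SE, limma adjusted p = 0.000164) and 3.02-fold lower at 20 mM (-1.59 ± 0.14, limma adjusted p = 0.000414).

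MT1M was dim. Its signals were 7.94 and 36.3 in embryoid bodies with 20 mM ethanol, 56.2 and 51.3 with 0 mM, 115 and 129 in undifferentiated cells with 20 mM, and 112 and 132 with 0 mM. All 4 embryoid body arrays had it below their own median signal, so it entered the test only through the undifferentiated arrays, where it had to be the higher. The fitted log2 change was -2.84 ± 0.65 SE at 20 mM (limma adjusted p = 0.0126) and -1.18 ± 0.65 at 0 mM (limma adjusted p = 0.178), and with embryoid body signals this dim neither is a measured fold. Fitted on the compared groups alone, the limma adjusted p became 0.0632 at 20 mM and 0.0081 at 0 mM, so neither call of MT1M is firm. Without array B of undifferentiated cells with 20 mM the limma adjusted p at 20 mM was 0.0554, and the log2 change was -1.74 without array A and -3.94 without array B of embryoid bodies with 20 mM. Leaving out either of those 2 embryoid body arrays also brought the limma adjusted p at 0 mM to 0.00274.

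**Figure D2:**
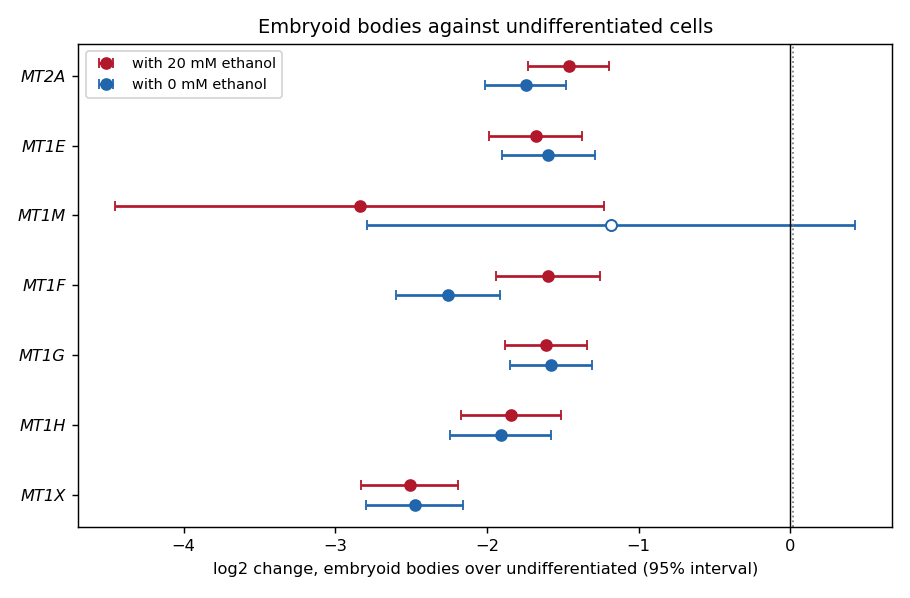
Log2 change between stages, embryoid bodies over undifferentiated cells, for the 7 metallothionein genes at 20 mM and at 0 mM ethanol, with bars for the 95% confidence interval of the limma fit on 2 arrays a group, filled points where called and a dotted line at the median of all genes. All points lie below 0, from -2.51 to -1.46 for the 6 bright genes, and the interval of MT1M at 0 mM, -2.79 to 0.43, is the one that crosses 0.

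How far the members can be told apart depends on their probe sets. Of the 11 probe sets that name 1 member, 9 carry the suffix _x_at, which marks sets with probes that also match other transcripts, and 2 are plain _at sets. The main probe set of 6 members was of the _x_at kind, with MT1M as the exception. Since such sets may pick up RNA of other members, similar changes in them are not separate measurements. Probe and transcript sequences were not compared here, so the extent of such sharing was not tested. Their stage changes ran from -2.48 to -1.58 at 0 mM and from -2.51 to -1.46 at 20 mM on the log2 scale.

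Second probe sets gave the same direction between stages. Without a test of their own, they had log2 changes at 0 mM and at 20 mM of -1.99 and -1.56 for MT1E, -2.14 and -1.84 for MT1F, and -1.99 and -2.09 for MT1X. The main set of MT1X was designed on a sequence that RefSeq lists under MT1L, a pseudogene of the cluster, whereas its second set was designed on MT1X itself. Signals of that second set were 2291 and 2344 in embryoid bodies with 20 mM ethanol, 2818 and 2630 with 0 mM, 11220 and 8710 in undifferentiated cells with 20 mM, and 12023 and 9772 with 0 mM. The plain _at set of MT1G lay below the array median on all 8 arrays, with signals from 19.5 to 40.7 and log2 changes of -0.56 at 0 mM and -0.05 at 20 mM. If every _x_at and _s_at set is left out, MT1M is the one member still tested, so the lower signals of the other 6 rest on _x_at sets alone.

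**Figure D3:**
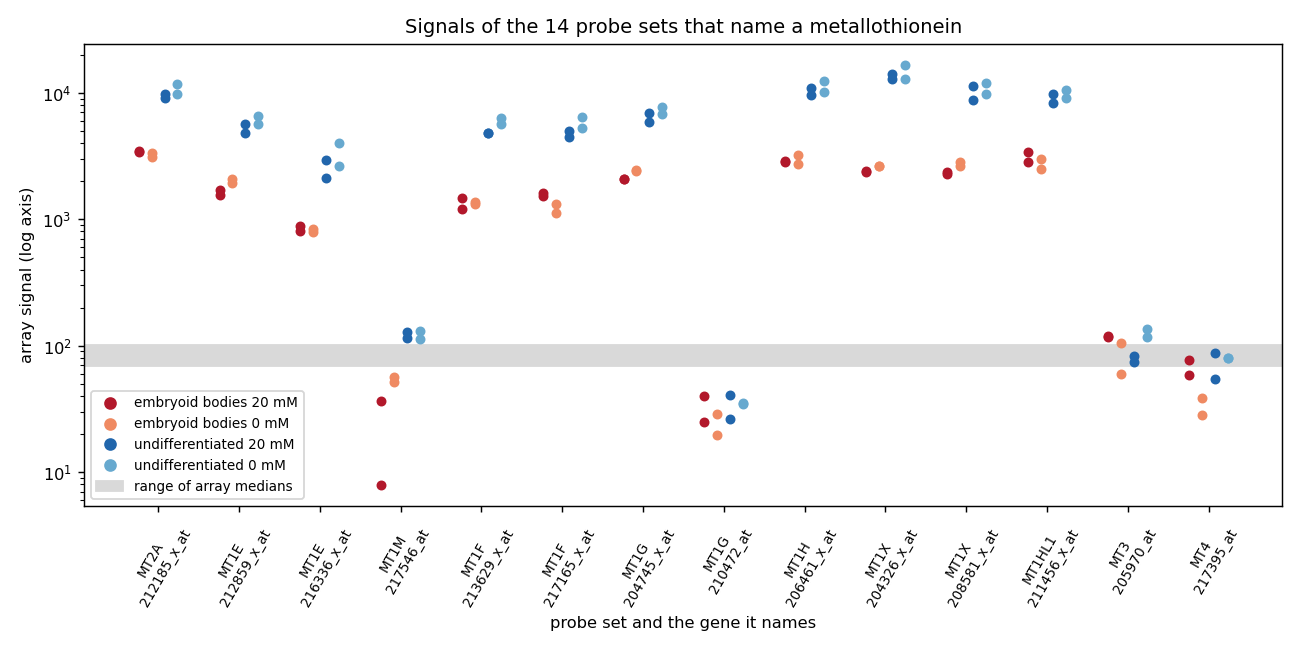
Signals (log axis, array signal units) of the 14 probe sets that name 1 metallothionein gene, 11 for members and 3 for relatives, with 1 point per array, colours for the 4 groups and a grey band for the range of array medians. The 10 _x_at sets lie far above the band with embryoid body points below undifferentiated points, while the 4 _at sets lie near or below the band.

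None of the 7 genes passed the threshold with ethanol in embryoid bodies. There limma called 10 of all 14078 genes, or 0.071%, and 3136 genes had an unadjusted p under 0.05. The members' log2 changes had a median of -0.15, against 0.02 for all genes tested, with 5 below 0 and 2 above. Values of MT1E and MT1G, given array by array above, were lower on both arrays with 20 mM ethanol than on both with 0 mM, as were those of MT1X and MT1M. Those of MT2A and MT1F were higher on both. These were 4 and 2 of the 7 members, while 28.1% of all genes tested had both 20 mM arrays below both 0 mM arrays and 29.4% had both above. The sets of MT1E, MT1G and MT1X are _x_at sets that may pick up RNA of one another, so the 4 are not counted as separate observations.

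The largest log2 differences with ethanol among the bright genes in embryoid bodies were 0.37 for MT1F (95% interval 0.02 to 0.71, limma adjusted p = 0.204) and -0.32 for MT1E (-0.62 to -0.01, limma adjusted p = 0.214). Second probe sets did not show these values, with -0.02 for MT1F and 0.07 for MT1E. MT1G differed by -0.22 (95% interval -0.48 to 0.05, limma adjusted p = 0.301) and MT1X by -0.15 (-0.47 to 0.17, limma adjusted p = 0.542). For MT1H the difference was -0.07 (95% interval -0.40 to 0.26, limma adjusted p = 0.812), and for MT2A it was 0.10 (-0.17 to 0.37, limma adjusted p = 0.627). The intervals of these 6 genes thus leave room for log2 differences of up to 0.71 in size. MT1M differed by -1.66 (95% interval -3.27 to -0.05, limma adjusted p = 0.214), and the value was -0.56 without array A and -2.76 without array B of the group with 20 mM. Of the 7 genes, MT1E, MT1F and MT1M had an unadjusted limma p under 0.05.

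The scale of the arrays matters for this comparison, because the median signal was higher on embryoid body arrays with 20 mM ethanol. Centring every array on its own median moved the median log2 change of all genes to -0.25. On that scale limma called 172 genes higher and 3704 lower, the lower ones 26.3% of all, and MT1E (-0.58, adjusted p = 0.0238) and MT1G (-0.48, adjusted p = 0.0256) were among those called lower. MT2A then stood at -0.17, below 0 and above the median of all genes.

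In undifferentiated cells none of the 7 genes passed the threshold with ethanol either. Limma called 1 gene of all tested, or 0.0071%, and 986 genes had an unadjusted p under 0.05, with no member among them. The members' log2 changes had a median of -0.18, against 0.02 for all genes, with 6 below 0 and MT1M at 0. They ran from -0.30 for MT1F (95% interval -0.64 to 0.04, limma adjusted p = 0.744) through -0.23 for MT1E and -0.18 for both MT2A and MT1G to -0.13 for MT1H and -0.12 for MT1X. MT1F was the one member with both 20 mM arrays below both 0 mM arrays, as in 12.1% of all genes. For MT1M the 95% interval ran from -1.61 to 1.61, wide enough to hide a large difference in either direction. All 9 _x_at sets of members had a value below 0 with ethanol, from -0.37 to -0.12, but such sets are not separate measurements.

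Replicate arrays differed in the same direction across members in these cells. Array A was brighter than array B in 9 of the 9 _x_at sets in undifferentiated cells with 0 mM ethanol and in 8 of the 9 in those with 20 mM. Among all genes tested, array A was the brighter in 46.8% with 0 mM and 48.1% with 20 mM. The _x_at sets may pick up RNA of one another, so they are not separate measurements. The median log2 difference of A over B across the 7 members was 0.17 with 20 mM and 0.27 with 0 mM, while that of all genes tested was 0 in both groups. In embryoid bodies it was 0.03 with 20 mM and 0.10 with 0 mM. Only in undifferentiated cells with 0 mM was this difference larger in size than the member median with ethanol in the same stage.

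**Figure D4:**
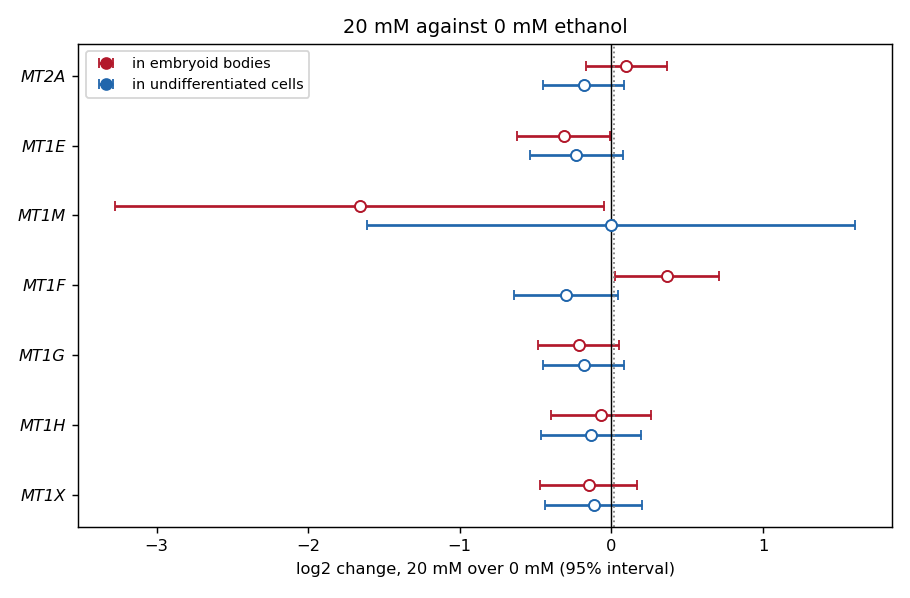
Log2 change with 20 mM against 0 mM ethanol for the 7 metallothionein genes in embryoid bodies and in undifferentiated cells, with bars for the 95% confidence interval of the limma fit on 2 arrays a group and a dotted line at the median of all genes. No gene passed the threshold, so all points are open. MT1F lies at 0.37 in embryoid bodies and -0.30 in undifferentiated cells, and MT1M has the widest intervals.

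Whether the ethanol change differed between embryoid bodies and undifferentiated cells was tested as an interaction, with the undifferentiated value subtracted. Stage and cell line cannot be told apart in this difference. Limma called 0 of all genes tested, or 0%, with 1828 at an unadjusted p under 0.05. MT1F had the widest difference of the bright members, at a log2 value of 0.66 (95% interval 0.18 to 1.15, limma adjusted p = 0.316), and its second probe set gave 0.30. For MT2A the difference was 0.28 (95% interval -0.09 to 0.66, limma adjusted p = 0.478). Those of MT1E, MT1G, MT1H and MT1X lay between -0.08 and 0.07, and that of MT1M was -1.66 (95% interval -3.94 to 0.62, limma adjusted p = 0.492). The median over the members was -0.03, against -0.02 for all genes tested.

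Of 11 further genes and pseudogenes of the family, 3 had a probe set naming them alone. MT1HL1, a copy outside the cluster, had signals of 3388 and 2818 in embryoid bodies with 20 mM ethanol, 3020 and 2512 with 0 mM, 9772 and 8318 in undifferentiated cells with 20 mM, and 10472 and 9120 with 0 mM. It was 3.55-fold lower in embryoid bodies at 0 mM (limma adjusted p = 0.000436) and 2.92-fold lower at 20 mM (limma adjusted p = 0.000637), through an _x_at set that may cross-hybridise with the members. MT3, which binds zinc and copper in neurons, was dim.

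MT3 signals were 117 and 120 in embryoid bodies with 20 mM, 105 and 60.3 with 0 mM, 83.2 and 74.1 in undifferentiated cells with 20 mM, and 117 and 135 with 0 mM. Its log2 change between stages was -0.66 at 0 mM (limma adjusted p = 0.0714) and 0.60 at 20 mM (limma adjusted p = 0.0911). Quantile normalisation, median centring and cyclic loess made the value at 0 mM larger in size, -0.95 to -0.87, with limma adjusted p of 0.0178 to 0.0267, and left 0.18 to 0.23 at 20 mM. MT4 was dimmer still, with 77.6 and 58.9, then 28.2 and 38.9 in embryoid bodies with 20 mM and with 0 mM. Its values in undifferentiated cells were 87.1 and 55.0 with 20 mM and 79.4 on both arrays with 0 mM, and its fitted log2 change was -1.26 at 0 mM (limma adjusted p = 0.0110) and -0.03 at 20 mM. All 4 embryoid body arrays had MT4 below their median, so the filter favoured the lower value there and the call at 0 mM carries little weight. With ethanol no gene of these 3 was called in either stage.

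Genes that handle the same metals were called in both directions between stages. Of 8 zinc exporters tested, 5 rose and 2 fell in embryoid bodies at 0 mM and 4 rose and 1 fell at 20 mM. Of all genes tested, 28% were called higher and 24.7% lower at 0 mM, and 29.2% and 27% at 20 mM. SLC30A5, SLC30A6 and SLC30A7, which load zinc into the secretory pathway, rose at both doses. SLC30A7 was at 1479 and 1413 in embryoid bodies with 20 mM, 1148 and 1202 with 0 mM, 661 and 617 in undifferentiated cells with 20 mM, and 525 and 550 with 0 mM. SLC30A10, a manganese exporter, was called higher at both doses, with signals of 107 to 174 in embryoid bodies and 4.90 to 26.3 in undifferentiated cells. SLC30A3, which fills synaptic vesicles with zinc, was called lower, with 21.9 to 30.2 in embryoid bodies and 100 to 234 in undifferentiated cells. SLC30A4, called higher at 0 mM, had 162 to 191 in embryoid bodies and 6.46 to 77.6 in undifferentiated cells. The dimmer stage of each lay below the array medians, so the filter favoured these directions and no fold is given. SLC30A1, the exporter of the cell surface and a known target of MTF1, stood at 3020 on all 4 embryoid body arrays. In undifferentiated cells it stood at 2512 and 3236 with 20 mM and 3020 and 3090 with 0 mM, a log2 change of 0.08 at 20 mM (limma adjusted p = 0.598) and -0.02 at 0 mM (limma adjusted p = 0.918).

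Among 12 zinc importers tested, 5 were called higher and 1 lower at each dose. The shares over all genes tested were 28% higher and 24.7% lower at 0 mM, and 29.2% and 27% at 20 mM. SLC39A5, SLC39A6 and SLC39A7 rose at both doses, SLC39A14 fell at 0 mM and SLC39A4, the importer of the gut, fell at 20 mM. Median log2 changes were 0.69 at 0 mM and 0.75 at 20 mM for exporters and 0.37 and 0.32 for importers. After centring each array on its median the importers stood at 0.08 and -0.10, against -0.27 and -0.40 for all genes, and SLC39A9 turned from a rise to a value below 0 at 20 mM.

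Copper and iron genes were divided. Of 13 copper genes 5 rose and 3 fell at 0 mM, and 4 rose and 5 fell at 20 mM. COX17, counted as a rise at both doses, had undifferentiated signals of 33.9 to 58.9, below the array medians, so the filter favoured its direction. The copper pump ATP7A rose by a log2 value of 1.76 at 0 mM and 1.88 at 20 mM, and its relative ATP7B also rose at both. SOD1, the copper and zinc superoxide dismutase, fell, with log2 changes of -0.43 and -0.55. Of 8 iron genes, 3 rose and 1 fell at each dose. Over all genes tested, 52.7% were called in either direction at 0 mM and 56.3% at 20 mM, so calls in both directions are not particular to these lists. Transferrin (TF), called higher, had signals of 257 to 741 in embryoid bodies and 4.68 to 31.6 in undifferentiated cells. The iron exporter ferroportin (SLC40A1), also called higher, had 389 to 661 in embryoid bodies and 17.8 to 51.3 in undifferentiated cells. Undifferentiated signals of both lay below the array medians, so these genes too entered the test through 1 stage and no fold is given.

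Among 8 regulators of metallothionein transcription, 3 rose and 1 fell at 0 mM and 1 rose and 1 fell at 20 mM. Calls in either direction made up 52.7% of all genes tested at 0 mM and 56.3% at 20 mM. MTF1 had signals of 468 and 501 in embryoid bodies with 20 mM, 589 and 646 with 0 mM, 550 and 537 in undifferentiated cells with 20 mM, and 525 and 513 with 0 mM. Its embryoid body arrays were thus the lowest of the 8 with ethanol and the highest without it. The log2 change between stages was 0.25 at 0 mM (limma adjusted p = 0.0413), which became -0.03 after median centring, 0.09 after quantile normalisation and 0.16 after cyclic loess, with no call in any of the 3. At 20 mM it was -0.17 (limma adjusted p = 0.123), and -0.58 to -0.26 on those 3 scales, each called. STAT3, through which cytokines raise metallothioneins, fell, with log2 changes of -0.66 at 0 mM and -0.55 at 20 mM, and the zinc-sensing ZNF658 rose by 0.73 and 0.86.

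Among 13 genes of metal and oxidative stress, 3 rose and 4 fell at 0 mM and 4 rose and 5 fell at 20 mM. GCLM, a subunit of the enzyme that starts glutathione synthesis, fell, with log2 changes of -0.91 at 0 mM and -0.76 at 20 mM, as did SRXN1 with -0.75 and -1.23. NQO1, a quinone reductase, rose by 0.71 and 0.51. Of 10 genes of the glucocorticoid response, 5 rose and 2 fell at 0 mM and 5 rose and 3 fell at 20 mM. Beside the counts of both lists stand the 52.7% and 56.3% of all genes tested that were called in either direction at 0 mM and 20 mM. FKBP5, a classic target of the receptor, fell, with log2 changes of -0.71 and -0.95, whereas ZBTB16, another, was called higher, with undifferentiated signals below the array medians. PDK4, also called higher at both doses, had undifferentiated signals of 0.955 to 15.1, likewise below the medians. The filter favoured the rise of ZBTB16 and PDK4, so these calls carry little weight. Centring each array on its median turned the sign of called changes in MTF1 at 0 mM and in SLC39A9, CCS, DUSP1 and ERRFI1 at 20 mM, all from positive to negative, and of no other called gene in these 7 lists. Quantile normalisation and cyclic loess turned none. As deposited, no gene of these lists was called with ethanol in either stage or in the difference. After centring, with 26.3% of all genes called lower with ethanol in embryoid bodies, those called lower were 0 of 8 zinc exporters, 4 of 12 zinc importers, 7 of 13 copper genes, 1 of 8 iron genes, 2 of 8 regulators with MTF1 among them, 5 of 13 stress genes and 2 of 10 glucocorticoid genes, and none was called higher. The smallest adjusted p among them as deposited, for ethanol in embryoid bodies, was that of MTF1, with a log2 change of -0.35 ± 0.08 SE (limma adjusted p = 0.106), and SLC39A3 followed at -0.48 ± 0.11 (limma adjusted p = 0.109).

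**Figure D5:**
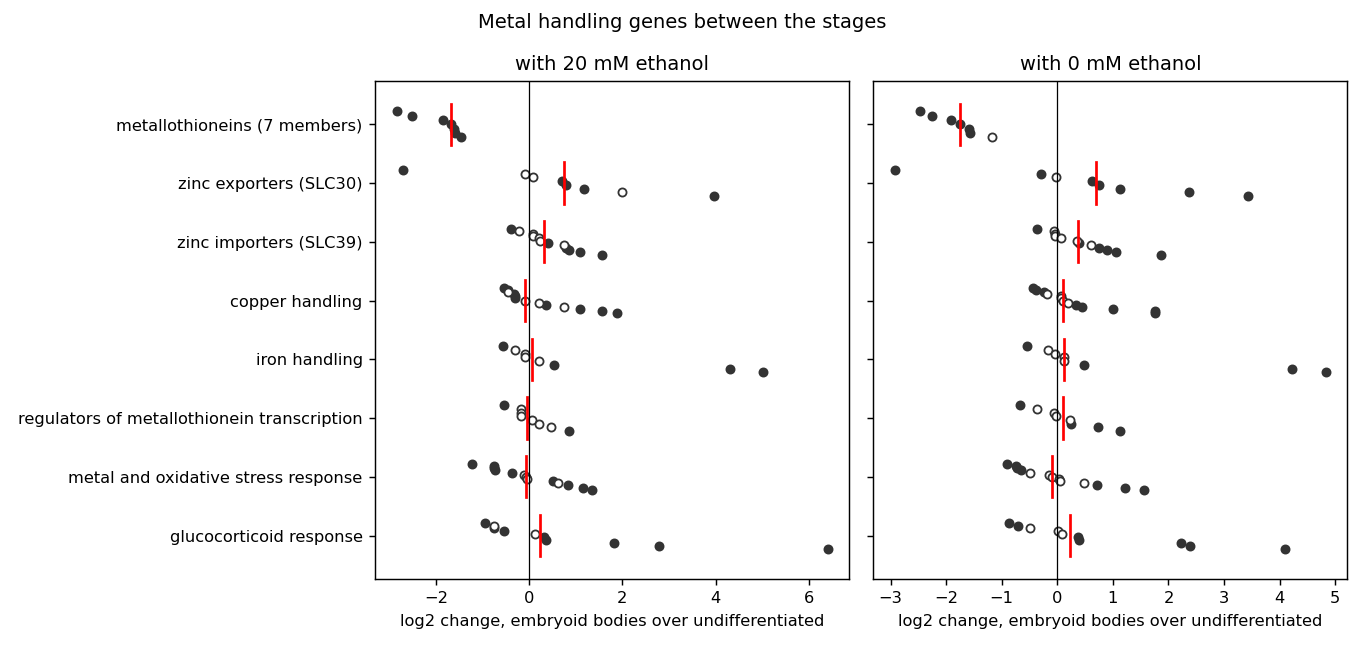
Log2 change between stages, embryoid bodies over undifferentiated cells, at 20 mM and at 0 mM ethanol for the metallothioneins and for genes in the lists of metal handling and stress, with 1 point per gene, filled where called, and a red line at each list's median. The 2 panels have different scales. The metallothionein points all lie below 0, while the points of every other list lie on both sides.

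Markers of cell types moved with the stage as well. Of all genes tested, 28% were called higher and 24.7% lower at 0 mM, and 29.2% and 27% at 20 mM. Of 7 pluripotency markers with a probe set of their own, 6 fell at 20 mM and 4 at 0 mM, and their summed signals were 67718 to 70767 in embryoid bodies with 20 mM ethanol, 77500 to 79965 with 0 mM, 99413 to 105916 in undifferentiated cells with 20 mM and 96840 to 101532 with 0 mM. The 6 tested markers of endoderm and liver precursors all rose at both doses, with summed signals of 37378 to 48029 in embryoid bodies and 701 to 1054 in undifferentiated cells. Mesenchyme markers rose in 7 of 7, with sums of 54298 to 54844 with 20 mM and 31618 to 31825 with 0 mM in embryoid bodies against 4644 to 6042 in undifferentiated cells. Neural markers rose in 5 of 6 at each dose, and the sixth, TUBB3, fell at 20 mM. Of 4 astrocyte markers tested, 2 rose and 1 fell at each dose. Of 3 endothelial markers, KDR and TEK fell at 0 mM and none was called at 20 mM, while of 3 intestinal markers 2 rose at 0 mM and all 3 at 20 mM. FGB, TWIST1, FABP1 and S100B, counted as rises, lay below the array medians in undifferentiated cells, as did SERPINA1 with 0 mM. Undifferentiated signals of the first 4 were 9.55 to 24.5, 39.8 to 61.7, 1.78 to 17.8 and 1.82 to 7.24. AQP4, the astrocyte marker that fell, lay below the medians in embryoid bodies, at 45.7 to 52.5. The filter favoured these directions, so these calls carry little weight. A file on a log scale lists no signal of 0, and the part of cell composition in the metallothionein values was not tested.

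Neighbours of the cluster on chromosome 16 were called in both directions between stages. Before the cluster, GNAO1, a G protein subunit, fell, with log2 changes of -1.28 at 0 mM and -2.33 at 20 mM, and NUDT21, a factor of RNA cleavage, fell with -0.66 and -0.53. BBS2, a protein of the cilium, rose by 0.38 and 0.37. After the cluster, HERPUD1, a gene of the endoplasmic reticulum stress response, rose by 0.76 and 0.81, and RSPRY1 rose by 0.45 and 0.32. NUP93, a nuclear pore protein, was at -0.30 at 0 mM (limma adjusted p = 0.0634) and fell at 20 mM, with -0.51. In all, of the 5 tested genes on either side, 3 rose and 2 fell at 0 mM and 4 rose and 4 fell at 20 mM. Over all genes tested, 28% were called higher and 24.7% lower at 0 mM, and 29.2% and 27% at 20 mM. With so few neighbours, the counts are not read as a feature of the region. No neighbour among them was called with ethanol in either stage.

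Likeness of profiles was measured as the root mean square difference, over the 8 arrays, of log2 values each less the gene's own mean. Between members it was 0.07 for MT1E and MT1G, the closest pair, and 0.94 for MT1F and MT1M, the farthest. Among 14055 genes outside the family that were compared, the 5 nearest to the mean profile of the 7 members were F12, which encodes coagulation factor XII, at 0.10, OPTN at 0.11, and PMAIP1, GPR176 and GPR160 at 0.12 each. Nearest to MT2A was RASL11B at 0.09, nearest to MT1X was STC1 at 0.10, and nearest to MT1H was GNG4 at 0.10. PMAIP1 was nearest to MT1E at 0.08, CENPH to MT1G at 0.09, VLDLR to MT1F at 0.13 and PPP1R16B to MT1M at 0.30. These distances rest on 8 arrays that mainly contrast 2 stages, and they describe the arrays without a test.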

How the data were processed

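Total RNA of the 8 samples was measured on expression arrays with 54675 probe sets. The deposited values are log10 signals, which the authors gave to 2 decimals: they ran from -1.46 to 4.61 and shared a trimmed mean on the linear scale. The submitters' processing notes name RMA without a version. RMA gives log2 values with neither property, so the form is that of globally scaled signals, and the step that made it is not given in the sources used here. Values were turned to log2 with no further normalisation. The platform annotation named 1 gene for 41097 probe sets, several for 1801 and none for 11777, and 62 were controls. A gene entered the test when at least 2 arrays lay above their array's median, which left 14078 genes.

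One mean per group was fitted to all 8 arrays with limma 3.58.1 in R 4.3.3, with 4 residual and 1.81 prior degrees of freedom, 2-sided tests and Benjamini-Hochberg adjustment at 0.05. The fit was tested on simulated data. Like-lettered arrays of different groups did not deviate together (correlations of -0.03 to 0.05 over 6 pairs), so the letters were not used as pairs. The number of arrays limits the precision. Alternatives covered the filter, the choice of probe set, scaling, the variance model, the replicate block and leaving out each array. The members, gene lists and tests were chosen with earlier results of these data known. Named genes are the members, all their probe sets, measured relatives, called genes or up to 4 genes with the smallest p of each list, genes with the most alike profiles and the tested neighbours of the cluster, which were added after seeing the data. Transcripts used to check the cell line are not reported.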

Additional observations from a re-analysis of the deposited data

How the results depend on the processing

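The 6 bright members were called lower in embryoid bodies at both doses under all 18 alternatives that tested them. Over all genes, the share called lower ran from 14.8% without the filter to 41.3% after median centring at 0 mM. At 20 mM that share ran from 16.4% to 48.5%. The 6 members rest on _x_at sets that may pick up RNA of one another, so they are not separate measurements. Leaving out _x_at and _s_at probe sets left MT1M as the only member tested. The members called were then 0 at 0 mM and 1 at 20 mM, with a median log2 change of -1.18 and -2.84. Ethanol values of MT1M were -1.66 in embryoid bodies, 0 in undifferentiated cells and -1.66 for the difference. The member median between stages at 0 mM was -1.91 with the probe set of highest SD, -1.59 after quantile normalisation, -2.03 after median centring and -1.61 after cyclic loess. At 20 mM it was -1.84 with the probe set of highest SD, -2.09 after centring and -1.53 after cyclic loess. Centring also gave a member median with ethanol of -0.42 in embryoid bodies, with 2 called, -0.32 in undifferentiated cells and -0.17 for the difference, and it moved the median of all genes itself by up to -0.40. Its calls between stages over all genes were 2506 higher and 5808 lower at 0 mM and 2271 and 6821 at 20 mM, against 3948 and 3478, and 4113 and 3808, as deposited. The mean of all probe sets gave 0.17 for the difference.

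Leaving out 1 array moved the member median between stages within -1.88 to -1.61 at 0 mM and -1.79 to -1.56 at 20 mM. With ethanol it ran from -0.18 to -0.13 in embryoid bodies, from -0.30 to -0.083 in undifferentiated cells and from -0.13 to 0.15 for the difference.

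Uncalled ethanol values of single members changed sign as follows, and the cause was not tested. In embryoid bodies MT1G became 0.10 with the mean of probe sets, MT1E 0.066 and MT1F -0.017 with the set of highest SD, MT2A -0.17 after centring and MT1H 0.033 after cyclic loess. For the difference, MT1E became 0.17 and MT1G 0.24 with the mean of probe sets, MT1E 0.43 with the set of highest SD, MT1H -0.066 after centring, and MT1G 0.040 and MT1X 0.055 after cyclic loess. Leaving out 1 array, MT1H in embryoid bodies ran from -0.18 to 0.050, the upper value without array A of the group with 0 mM, and MT1X in undifferentiated cells from -0.30 to 0.066, the upper value without array A of the group with 0 mM. The difference then ran from -0.20 to 0.033 for MT1E, -0.15 to 0.083 for MT1G, -0.066 to 0.20 for MT1H and -0.22 to 0.15 for MT1X.

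The number of all genes called with ethanol varied most: 10 in embryoid bodies became 0 to 3876, 1 in undifferentiated cells became 0 to 34, and 0 for the difference became 0 to 31. With the replicate block, which the letters do not support as a pairing, 0 genes were called with ethanol in either stage, the median of the members stayed at -1.74 and -1.68 between stages, and no call of a member changed. With 2 arrays a group, and with array signals of near-identical transcripts, small ethanol differences and differences between members cannot be resolved.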
